A study of Mus musculus with 7 samples.

Results

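The genes described here were 10 transcription factor genes of the skeleton, namely the SOX genes *Sox9*, *Sox5*, and *Sox6*, the RUNX genes *Runx1*, *Runx2*, and *Runx3*, and *Mef2c*, *Foxa3*, *Sp7*, and *Dlx5*. They were chosen by exact gene name from the deposited count table, without use of their values. All 10 were found among 55401 genes, and all 10 were among the 16429 genes tested. RNA-Seq had been performed on 7 samples from the right knees of male C57BL/6J mice, 4 WT and 3 *Trpc1-/-*. All mice underwent destabilization of the medial meniscus (DMM), a surgery that makes the joint unstable and induces OA, at 10 weeks of age, and tissue was taken 2 weeks later. *Trpc1* encodes a calcium-permeable channel, and the *Trpc1-/-* mice carried the germline *Trpc1tm1Lbi* allele, in which the loss of an exon gives a premature stop, in every cell of the body. Each sample pooled 2 to 3 mouse knees. The labels call the tissue articular cartilage, whereas the methods of the study add subchondral bone. No sham-operated or unoperated sample was analysed here, so every value belongs to joints after DMM.

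SOX9 is the main activator of the chondrocyte program. It binds enhancers of the cartilage matrix genes *Col2a1* and *Acan* together with SOX5 and SOX6, which lack an activation domain of their own and strengthen its binding. RUNX proteins bind DNA as a pair with CBFβ. RUNX2 drives chondrocyte hypertrophy and, with its downstream factor SP7 (osterix), osteoblast differentiation, while MEF2C, DLX5, and FOXA factors are known to favor hypertrophy. Several of these genes also act outside the skeleton, including *Runx1* in blood stem cells, *Runx3* in T cells, *Sox6* in erythroid cells, and *Mef2c* in muscle, endothelium, and B cells.

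Counts on genes summed to between 52142451 and 118254070 per sample. WT replicate 1 had the smallest sum and stood apart, with 19.6% of its counts on the mitochondrial ribosomal RNA gene *mt-Rnr2* (12.3% to 15.4% in the others) and a mean correlation of log2 CPM with the other samples of 0.947 (0.973 to 0.98 for the others). Levels are given as CPM (counts scaled to a common library size), computed here with edgeR's TMM normalization. The targeted gene *Trpc1* lay between 4.33 and 4.83 CPM in WT and between 3.04 and 3.79 CPM in *Trpc1-/-* samples, and these counts cover the whole gene rather than the deleted exon. Collagen genes of cartilage and of bone and fibrous tissue were both abundant, with *Col2a1* at 2980 ± 248 CPM and *Col1a1* at 8650 ± 2880 CPM in WT (SD, n = 4). Hemoglobin and neutrophil genes were also abundant, with *Hbb-bs* at 9920 ± 2690 CPM and *S100a9* at 4330 ± 1910 CPM in WT (SD, n = 4). Because the RNA came from whole tissue, fewer cells of a type and less RNA per cell cannot be told apart.

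None of the 10 genes passed the test for a difference between the genotypes. Of the 10, 9 had a log2 fold change (logFC, *Trpc1-/-* against WT) below 0, against 51.9% of all genes tested, and *Sox6* lay above 0. The median logFC of the 10 was −0.19, and that of all genes tested was −0.0088. Single samples moved these figures, since 7 of the 10 were below 0 with a median of −0.06 without WT replicate 1, 6 with a median of −0.05 without *Trpc1-/-* replicate 1, and 9 with a median of −0.44 without *Trpc1-/-* replicate 2. With edgeR's quasi-likelihood test and Benjamini-Hochberg adjustment over all genes, 0 of the 10 were called, with adjusted P values from 0.433 to 0.928, and 0 of the 16429 genes (0%). At an unadjusted P under 0.05 the test took *Foxa3* alone, 1 of 10, beside 10% of all genes (4.51% higher and 5.49% lower in *Trpc1-/-* samples). *Foxa3* entered the test only through its level in WT samples. DESeq2, the test of the study, also called 0 of the 10 and took *Foxa3* alone at an unadjusted P under 0.05, while it called 1.79% of all genes (0.962% higher and 0.828% lower). In none of the 10 did the samples of the genotypes separate without overlap, whereas they did for 13.6% of all genes. P values of these fits weigh the difference between the genotypes against the spread between these pooled samples.

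**Figure D1:**
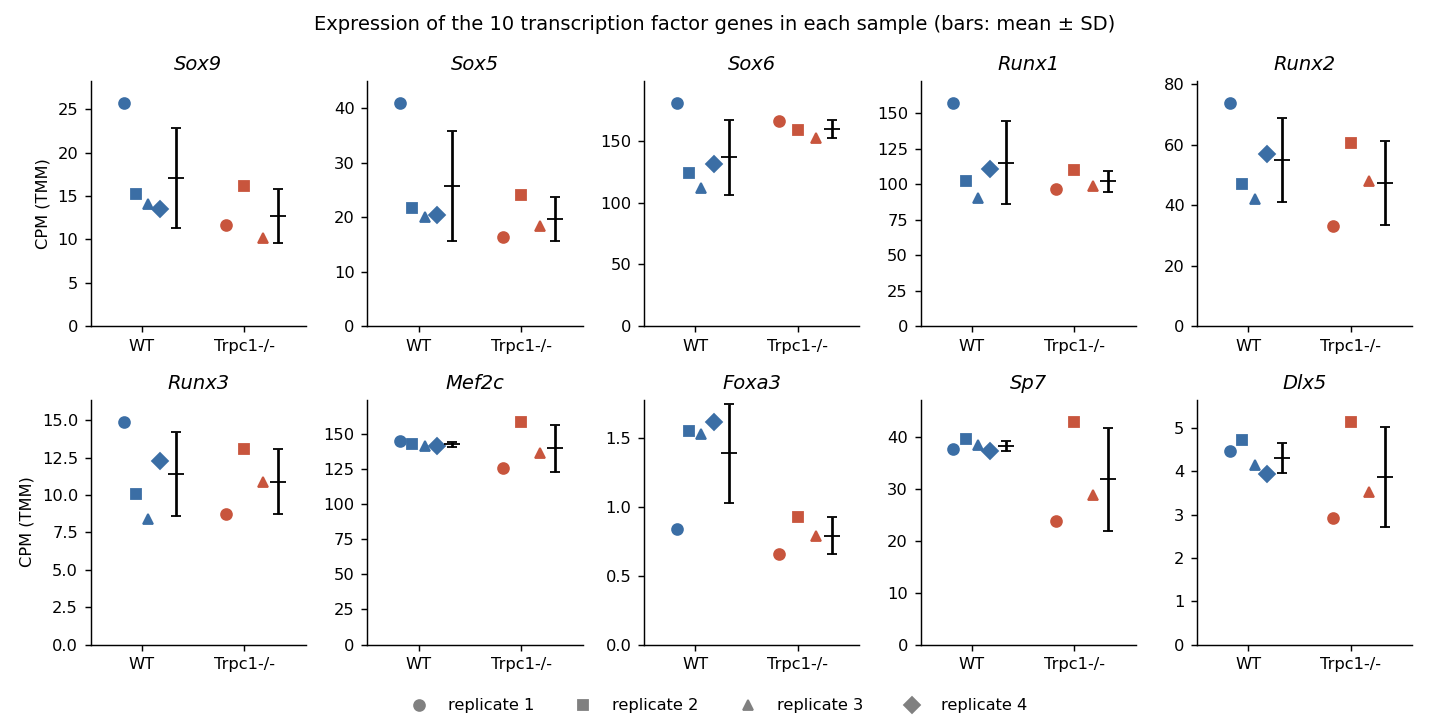
CPM (TMM-normalized, linear axes from 0) of the 10 genes in the 4 WT and 3 *Trpc1-/-* samples, with 1 marker per sample by replicate number and black bars for the mean ± SD of each group. WT replicate 1 is the highest of all samples for *Sox9*, *Sox5*, *Sox6*, *Runx1*, *Runx2*, and *Runx3*, and the lowest WT sample for *Foxa3*.

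*Sox9* (ENSMUSG00000000567, GRCm38 chr11:112782224-112787760, plus strand) was measured at 25.7, 15.2, 14.1, and 13.5 CPM in WT replicates 1 to 4 and at 11.6, 16.2, and 10.2 CPM in *Trpc1-/-* replicates 1 to 3. WT replicate 1 was far above the other WT samples, *Trpc1-/-* replicates 1 and 3 lay below all WT samples, and *Trpc1-/-* replicate 2 lay within the WT range. On average this was 17.1 ± 5.74 CPM over the 4 WT samples and 12.7 ± 3.15 CPM over the 3 *Trpc1-/-* samples (SD). The logFC was −0.43 (SE 0.26, 95% interval −1.04 to 0.18, adjusted P = 0.58 in edgeR). Leaving out any 1 sample kept it below 0, at −0.65 to −0.17, the latter without WT replicate 1.

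*Sox5* (ENSMUSG00000041540, chr6:143828425-144781977, minus strand), one of the partners of SOX9, followed a similar pattern. Its level was 40.9, 21.7, 20, and 20.3 CPM in the WT samples and 16.3, 24.1, and 18.3 CPM in the *Trpc1-/-* samples. As for *Sox9*, WT replicate 1 was far above the rest, and *Trpc1-/-* replicates 1 and 3 lay below every WT sample. The logFC was −0.39 (SE 0.28, 95% interval −1.04 to 0.26, adjusted P = 0.625 in edgeR), and it was −0.08 without WT replicate 1.

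*Sox6* (ENSMUSG00000051910, chr7:115470872-116038796, minus strand), the other SOX9 partner, was the one gene of the 10 with a higher mean in *Trpc1-/-* samples. It was measured at 181, 124, 112, and 132 CPM in WT and at 167, 159, and 153 CPM in *Trpc1-/-* samples. The 3 *Trpc1-/-* samples lay close together, above WT replicates 2 to 4 and below WT replicate 1. On average this was 137 ± 30.2 CPM over the 4 WT samples and 160 ± 7.16 CPM over the 3 *Trpc1-/-* samples (SD). The logFC of 0.22 (SE 0.16, 95% interval −0.15 to 0.59) had an adjusted P of 0.634 in edgeR.

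Single samples moved this value. It was 0.13 without WT replicate 3. Without WT replicate 1 the groups of *Sox6* did not overlap, as for 11.4% of all genes in the same direction, and the logFC was 0.38, with an adjusted P of 0.103 in edgeR and 0.000388 in DESeq2. These fits called 0.32% and 5.49% of all genes. *Sox6* is also transcribed in erythroid cells, and the summed level of 12 erythroid markers was higher in every *Trpc1-/-* sample (42000 to 57400 CPM) than in every WT sample (19200 to 36300 CPM). Among the WT samples, the highest *Sox6* level and the lowest erythroid sum fell in the same sample, WT replicate 1, which stood apart over all genes. The part of erythroid cells in the *Sox6* values was not tested.

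A pair of SOX motifs was found next to an internal start of *Sox6*. Promoter windows from RefSeq (GRCm38.p6, from 250 bases before to 50 bases after a start) were found for 7 of the 10 genes, 16 windows in all, and not for *Sox9*, *Sp7*, and *Dlx5*. The stretch below lies on chr7:115824924-115824952 (minus strand, in an intron of *Sox6*). It is shown because it holds the SOX motif AACAAT and its reverse complement ATTGTT, in capitals, 5 bases apart. The first motif in it starts 236 bases before the annotated start.
Sox6: tctttcAACAATgcttgATTGTTttcaca
The motif AACAAT, searched on both strands, was in 10.7% of the 32851 windows of all genes and in 1 of the 16 windows of these genes. A pair with this orientation and spacing was in 3 windows (0.00913%). The spacing was noticed in this window before it was counted, and a match of letters does not show that a protein binds there.

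The genes of the SOX9 partners were compared by the log2 ratio of *Sox6* to *Sox5* counts within each sample, which does not depend on the scaling between libraries. It was 2.14, 2.52, 2.48, and 2.7 in WT and 3.36, 2.72, and 3.07 in *Trpc1-/-* samples. Every *Trpc1-/-* sample lay above every WT sample, although *Trpc1-/-* replicate 2 exceeded WT replicate 4 only slightly. The difference of the means was 0.59. A two-sided exact permutation test gave P = 0.0286, the lowest value possible with the 35 splits of 7 samples, and 0.143 after adjustment over the 5 ratios tested. Leaving out any 1 sample gave differences of 0.43 to 0.75. The erythroid sum was higher in every *Trpc1-/-* sample (42000 to 57400 CPM) than in every WT sample (19200 to 36300 CPM). The summed level of 20 chondrocyte matrix genes was lower (4570 to 8030 CPM against 8210 to 8430 CPM in WT), also without overlap. The part of the cell mix in the *Sox6* to *Sox5* ratio was not tested. The ratio of *Sox9* to *Acan*, a target of SOX9 that encodes aggrecan, differed by 0.07 between the genotypes (exact permutation test, P = 0.8, adjusted P = 0.8). Its values overlapped widely, from −5.71 to −4.63 in WT and from −5.38 to −4.94 in *Trpc1-/-* samples.

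**Figure D2:**
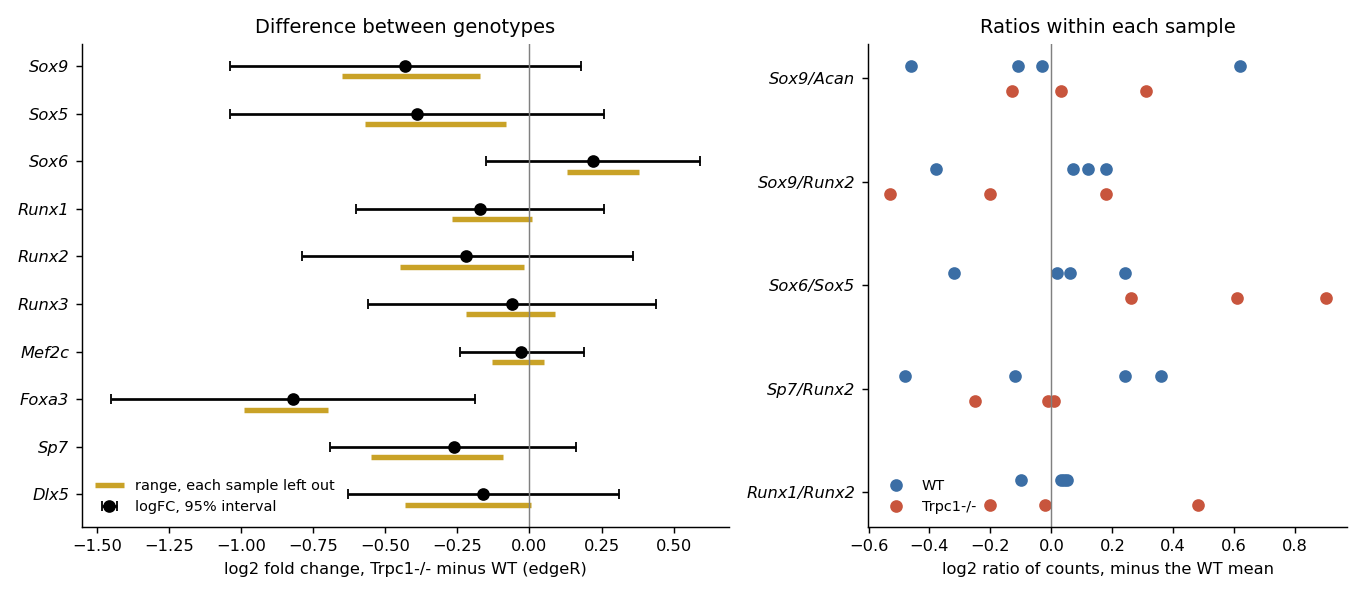
Left, logFC of the 10 genes between *Trpc1-/-* and WT samples (log2 scale) with 95% intervals as black bars and the range after leaving out any 1 sample as yellow bars. Right, 5 log2 ratios of counts in each sample, shown relative to the WT mean, with WT in blue and *Trpc1-/-* in red. The interval of *Foxa3* (−1.45 to −0.19) is the only one that does not include 0, but *Foxa3* entered the test only through its level in WT samples. *Sox6*/*Sox5* is the only ratio whose groups do not overlap.

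The levels of the RUNX genes overlapped between the genotypes. *Runx1* (ENSMUSG00000022952, chr16:92601466-92826149, minus strand) was measured at 157, 102, 89.9, and 111 CPM in WT and at 96.8, 110, and 98.5 CPM in *Trpc1-/-* samples. The *Trpc1-/-* samples lay within the range of WT replicates 2 to 4, and the logFC was −0.17 (SE 0.18, 95% interval −0.60 to 0.26, adjusted P = 0.733 in edgeR). Without WT replicate 1 it was 0.01.

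*Runx2* (ENSMUSG00000039153, chr17:44495987-44814797, minus strand), the factor of hypertrophy and bone formation, was measured at 73.7, 47.1, 42, and 57 CPM in WT and at 33.2, 60.7, and 47.9 CPM in *Trpc1-/-* samples. *Trpc1-/-* replicate 1 was the lowest of the 7 samples, and *Trpc1-/-* replicate 2 was second only to WT replicate 1. The logFC was −0.22 (SE 0.25, 95% interval −0.79 to 0.36, adjusted P = 0.75 in edgeR). It was −0.04 without WT replicate 1, −0.02 without *Trpc1-/-* replicate 1, and −0.45 without *Trpc1-/-* replicate 2. *Runx3* (ENSMUSG00000070691, chr4:135120652-135177990, plus strand), which acts with RUNX2 in chondrocyte maturation and also in T cells, was measured at 14.9, 10.1, 8.41, and 12.3 CPM in WT and at 8.75, 13.1, and 10.9 CPM in *Trpc1-/-* samples. The groups covered nearly the same range, and the logFC was −0.06 (SE 0.21, 95% interval −0.56 to 0.44, adjusted P = 0.923 in edgeR). The log2 ratio of *Runx1* to *Runx2* differed by 0.08 between the genotypes and that of *Sox9* to *Runx2* by −0.18 (exact permutation tests, adjusted P = 0.8 for both).

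Each of the RUNX genes had a pair of RUNX motifs in the same arrangement at an upstream start. The stretches below are shown because each holds ACCACA in 2 copies, in capitals, with 2 bases between. ACCACA is the reverse complement of TGTGGT, the core of the site that RUNX proteins bind. The *Runx1* stretch lies on chr16:92826025-92826054 (minus strand, untranslated part of an exon). That of *Runx2* lies on chr17:44814583-44814612 (minus strand, an exon with untranslated and coding annotation). That of *Runx3* lies on chr4:135120503-135120532 (plus strand, outside the gene in GENCODE M21). The first motif begins at base 29 for *Runx1* and base 24 for *Runx2*, counted from the annotated start. For *Runx3* it begins 134 bases before the start.
Runx1: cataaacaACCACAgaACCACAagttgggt
Runx2: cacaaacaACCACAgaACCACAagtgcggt
Runx3: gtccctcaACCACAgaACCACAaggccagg
The motif TGTGGT, searched on both strands, was in 16.8% of all windows and in 5 of the 16 windows of these genes. The pair was in 7 of the 32851 windows (0.0213%), of which 3 belonged to *Runx1*, *Runx2*, and *Runx3*. As above, the arrangement was noticed before it was counted, and it is a description of letters. The motif TGTTTAC of FOXA factors was in 3.65% of all windows and in 0 of the 16.

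*Mef2c* (ENSMUSG00000005583, chr13:83504034-83667080, plus strand), an activator of *Col10a1*, was the steadiest of the 10 genes in WT. It was measured at 145, 143, 142, and 142 CPM in WT and at 126, 159, and 137 CPM in *Trpc1-/-* samples. The WT samples nearly coincided, with a coefficient of variation (SD over mean) of 1.18%, and the *Trpc1-/-* samples lay on both sides of them. The logFC was −0.03 (SE 0.09, 95% interval −0.24 to 0.19, adjusted P = 0.928 in edgeR), the narrowest interval of the 10.

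*Foxa3* (ENSMUSG00000040891, chr7:19013284-19023538, minus strand) had the lowest level and the logFC farthest from 0. It was measured at 0.843, 1.55, 1.53, and 1.62 CPM in WT replicates 1 to 4 and at 0.661, 0.926, and 0.787 CPM in *Trpc1-/-* replicates 1 to 3. WT replicates 2 to 4 were above every *Trpc1-/-* sample, and WT replicate 1 lay within the *Trpc1-/-* range. These levels rested on 40, 164, 188, and 127 counts in WT and 81, 86, and 77 counts in *Trpc1-/-* samples. The 40 counts of WT replicate 1 had an exact Poisson 95% interval of 28.6 to 54.5, which covers counting error only.

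The logFC of *Foxa3* was −0.82 (SE 0.27, 95% interval −1.45 to −0.19), with an unadjusted P of 0.0177 and an adjusted P of 0.433 in edgeR and an adjusted P of 0.156 in DESeq2. The filter kept genes above 1 CPM in at least 2 samples, and *Foxa3* passed it through 3 WT samples and 0 *Trpc1-/-* samples, so it entered the test only through its level in WT. Leaving out any 1 sample gave a logFC of −0.99 to −0.7. Without WT replicate 1, the WT sample with the lowest *Foxa3* level, the groups did not overlap, as for 11.4% of all genes in that direction. The adjusted P was then 0.1 in edgeR and 0.00214 in DESeq2, in fits that called 0.32% and 5.49% of all genes. Given the filter and the sample left out, these values are a description and do not establish a difference. *Foxa2*, a relative of *Foxa3* that also acts in hypertrophy, had 1.41 CPM in WT and 1.03 CPM in *Trpc1-/-* samples on average (logFC −0.45, SE 0.23, adjusted P = 0.529 in edgeR), and *Foxa1* was at 0 counts in all samples.

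*Sp7* (ENSMUSG00000060284, chr15:102356606-102367182, minus strand), the osteoblast factor osterix, was measured at 37.6, 39.6, 38.4, and 37.3 CPM in WT and at 23.8, 42.9, and 28.8 CPM in *Trpc1-/-* samples. The WT samples were nearly equal, whereas *Trpc1-/-* replicates 1 and 3 lay well below them and *Trpc1-/-* replicate 2 above them. The coefficient of variation was 2.68% in WT and 31.2% in *Trpc1-/-* samples. The logFC was −0.26 (SE 0.18, 95% interval −0.69 to 0.16, adjusted P = 0.609 in edgeR).

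The value of *Sp7* depended on which *Trpc1-/-* sample was left out. Without *Trpc1-/-* replicate 1 the logFC was −0.09 (adjusted P = 0.959 in edgeR and 0.996 in DESeq2). Without *Trpc1-/-* replicate 2 it was −0.55, with an adjusted P of 0.304 in edgeR, and DESeq2 called *Sp7* (adjusted P = 0.00055) together with 2.27% of all genes. *Dlx5* (ENSMUSG00000029755, chr6:6877805-6882085, minus strand), a homeobox factor of osteoblasts, showed the same order of *Trpc1-/-* samples at a lower level. It was measured at 4.47, 4.71, 4.14, and 3.93 CPM in WT and at 2.92, 5.14, and 3.51 CPM in *Trpc1-/-* samples (logFC −0.16, SE 0.20, 95% interval −0.63 to 0.31, adjusted P = 0.773 in edgeR). *Trpc1-/-* replicates 1 and 3 were again below all WT samples and *Trpc1-/-* replicate 2 above them. The log2 ratio of *Sp7* to *Runx2* differed by −0.08 between the genotypes (exact permutation test, adjusted P = 0.8), with overlapping groups.

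**Figure D3:**
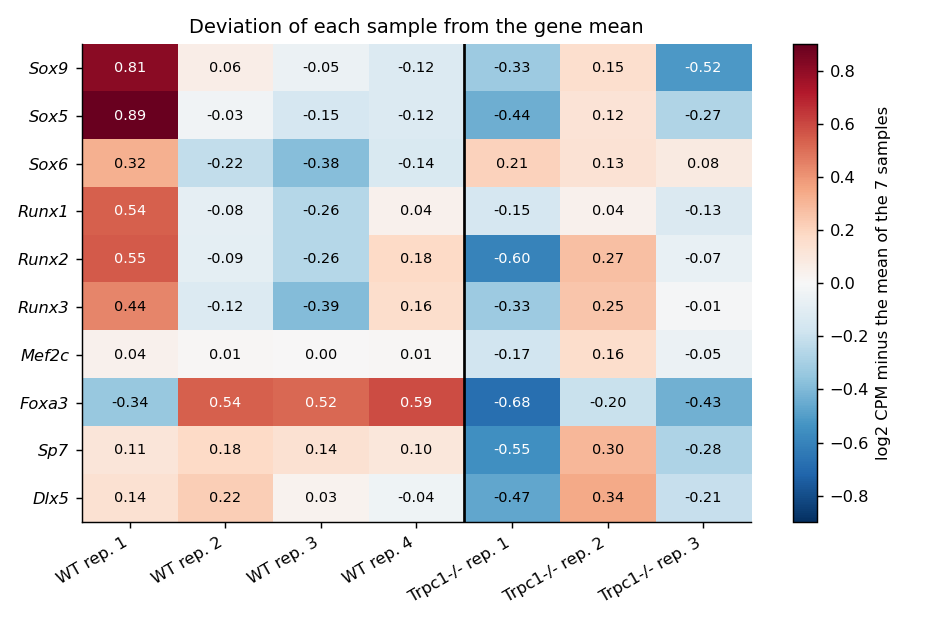
Deviation of each sample from the mean of the 7 samples for each of the 10 genes (log2 CPM, color and printed value), with WT samples left of the black line and *Trpc1-/-* samples right of it. WT replicate 1 is at 0.81 for *Sox9* and 0.89 for *Sox5*, and *Trpc1-/-* replicates 1 and 3 are below 0 and replicate 2 above 0 for every gene except *Sox6* and *Foxa3*.

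The *Trpc1-/-* samples thus differed among themselves in a repeated order. *Trpc1-/-* replicate 2 was the highest *Trpc1-/-* sample for every gene of the 10 except *Sox6*, and *Trpc1-/-* replicate 1 was the lowest for every gene except *Sox9* and *Sox6*. The summed level of 20 chondrocyte matrix genes had a like order, with 4570, 8030, and 4820 CPM in *Trpc1-/-* replicates 1 to 3 and 8210 to 8430 CPM in WT. The sum of 15 osteoblast and osteocyte genes was 14400, 22700, and 13900 CPM in *Trpc1-/-* replicates 1 to 3 and 17400 to 26900 CPM in WT. All 20 and all 15 genes were detected. Whether the tissue makeup of the pools set these levels was not tested.

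The labels carry mouse numbers in the 1300s for WT replicates 1 and 2 and all *Trpc1-/-* samples, and in the 1700s for WT replicates 3 and 4. What the number series stands for is not stated. Within the 1300s, with 2 WT samples of which one is WT replicate 1, the logFC was −0.69 for *Sox9*, −0.68 for *Sox5*, 0.07 for *Sox6*, −0.34 for *Runx1*, −0.35 for *Runx2*, −0.2 for *Runx3*, −0.04 for *Mef2c*, −0.28 for *Sp7*, and −0.25 for *Dlx5*. None of these was called in edgeR, and every direction was that of the fit of all samples. *Foxa3* did not pass the filter there.

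To compare levels between the genes, CPM was divided by the length of the merged exons. Per kilobase, *Sp7* (10.4 ± 1.97 CPM per kb), *Sox6* (9.9 ± 1.68), *Runx1* (9.09 ± 1.85), and *Mef2c* (9.03 ± 0.622) were the highest on average over all samples (SD, n = 7). These 4 could not be ordered, since each was above the next in only 3 to 4 of the 7 samples. *Runx2* (5.85 ± 1.51), *Sox9* (3.68 ± 1.22), and *Runx3* (2.24 ± 0.475 CPM per kb) followed, each below the one before it in all 7 samples although their ranges overlapped.

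*Dlx5* (1.82 ± 0.33 CPM per kb), *Sox5* (1.61 ± 0.572), and *Foxa3* (0.555 ± 0.204) had the lowest levels (SD, n = 7). *Runx3* was above *Dlx5* in 5 of 7 samples and *Dlx5* above *Sox5* in 6 of 7. *Foxa3* lay below *Sox5* without overlap. Among all genes tested, the mean levels per kilobase ranked between the percentile of 8.45 (*Foxa3*) and that of 77.7 (*Sp7*), with *Sox9* at 47.1. Merged exons include every annotated transcript, so a gene with many long isoforms is given a low level per kilobase when a short isoform is used. Whether this holds for *Sox5*, at 14.4 kb, was not tested. *Sox6* (14.8 kb) and *Mef2c* (15.7 kb) were longer and among the highest per kilobase.

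**Figure D4:**
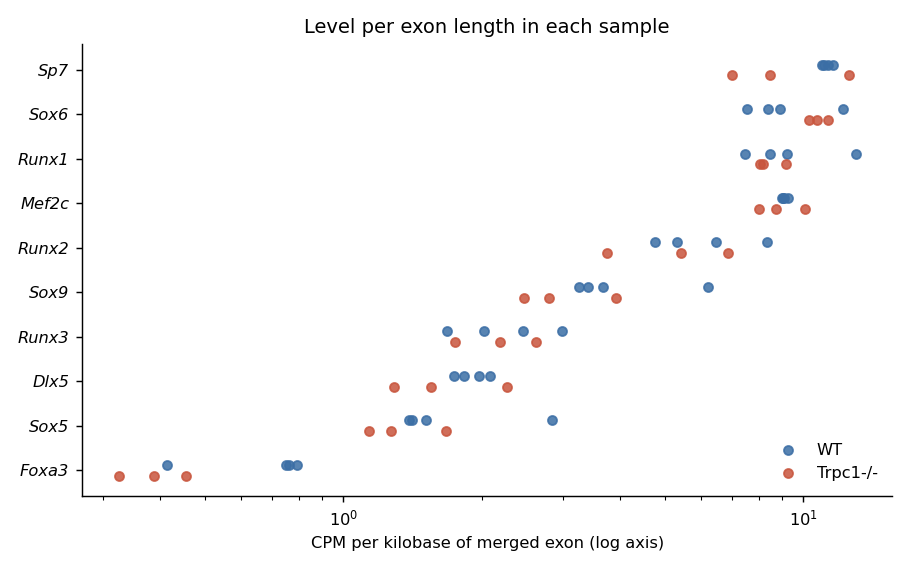
Level of each gene in each sample in CPM per kilobase of merged exon (log axis), ordered by the mean over the 7 samples, with WT in blue and *Trpc1-/-* in red. *Sp7*, *Sox6*, *Runx1*, and *Mef2c* overlap at the top, and *Foxa3* lies below all samples of the other genes.

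The genes with the most similar pattern were sought by the root mean square difference of mean-centered log2 CPM over the 7 samples, in which 0 means an identical pattern, and are given as a description. Among the 10, the closest pair was *Sp7* and *Dlx5* (0.0818), followed by *Sox9* and *Sox5* (0.115) and by *Runx2* and *Runx3* (0.124). *Dlx5* was also the third closest to *Sp7* of all genes compared, after *Entpd3* (0.0672) and *Gprc5c* (0.0816), and *Sp7* was the second closest to *Dlx5*, after *Tmem53* (0.074) and before *Tmem30b* (0.0879). *Foxa3* had no close counterpart among the 10, since its nearest was *Sp7* at 0.379, and over all genes compared it was nearest to *Rwdd2a* (0.105), *Fxyd2* (0.117), and *Rflna* (0.149).

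*Sox9* was nearest to *Plxna3* (0.0581), *Ccdc136* (0.0673), and *Pcdhga10* (0.0759), and *Sox5* to *Etl4* (0.0422), *Adgrl1* (0.0581), and *Mir99ahg* (0.0626). *Sox6* was nearest to *Ank1* (0.0447), which encodes ankyrin of the red cell membrane, *Atp7b* (0.0477), and *Ezh2* (0.0489). For *Mef2c* these were *Vps39* (0.0293), *Ptpn4* (0.0382), and *Chic1* (0.0384). *Runx1* was nearest to *Fam193a* and *Cnot3* (0.0226 each) and *Vps13d* (0.0265). *Runx2* was nearest to *Ppargc1b* (0.0812), *St8sia1* (0.0826), and *Zmiz2* (0.0892), and *Runx3* was close to *Ncoa6* (0.0573) and *Arid1a* (0.0627). The values of all genes come from the same 7 libraries, with the same depth and tissue makeup.

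Annotated genes overlap several of the 10. *Runx2* shares its locus with *Supt3*, a protein-coding gene on the opposite strand, which had 408 to 682 counts per sample and a logFC of −0.06 (SE 0.21, edgeR adjusted P = 0.928). The antisense transcripts *Runx2os1* and *Runx2os2* had 25 to 55 and 16 to 60 counts. Within *Sox5*, the intronic transcript *Sox5it* had 7 to 22 counts, and *Sox5os1*, *Sox5os2*, *Sox5os4*, and *Sox5os5* had 0. *Sox6os* had 0 to 30 counts. The libraries and the alignment kept strand, and apart from *Supt3* all these transcripts were below the filter.

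The relatives and cofactors of these factors were described by lists. Of 16 other SOX genes, 7 were tested and 0 were called in edgeR, with a median logFC of −0.07. *Sox4*, the most abundant (42 ± 6.82 CPM in WT, SD, n = 4), had a logFC of −0.07, and *Sox8*, a close relative of *Sox9*, was at −0.5 (SE 0.21, edgeR adjusted P = 0.496). *Sox1*, *Sox3*, *Sox14*, and *Sox21*, factors of the nervous system, were at 0 counts in all samples.

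Of 17 RUNX partners and cofactors, 16 were tested and 14 had a logFC below 0, with a median of −0.18. *Cbfb*, the obligate partner, averaged 89.8 ± 11.3 CPM over the 4 WT samples and 91.1 ± 1.95 CPM over the 3 *Trpc1-/-* samples (SD), a logFC of 0.02 (SE 0.11). *Wwtr1*, the coactivator TAZ, had a logFC of −0.37 (SE 0.1) without overlap of the groups, and *Smurf1*, a ubiquitin ligase, had −0.22 (SE 0.09), likewise without overlap. Neither passed the test, with adjusted P values of 0.395 and 0.469 in edgeR and 0.0732 and 0.314 in DESeq2. Groups that did not overlap, with lower values in *Trpc1-/-* samples, were found for 6.42% of all genes.

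Of 12 partners and cofactors of SOX9, 8 had a logFC below 0, and the median was −0.05. The coactivators *Ep300* (0.01) and *Crebbp* (−0.05) and the signaling factor *Ctnnb1* (−0.07) had a logFC near 0. *Wwp2*, a ubiquitin ligase that interacts with SOX9 and hosts the microRNA gene *Mir140*, averaged 163 ± 4.19 CPM over the 4 WT samples and 133 ± 12.3 CPM over the 3 *Trpc1-/-* samples (SD). This gave a logFC of −0.29 (SE 0.09). The adjusted P was 0.408 in edgeR and 0.0342 in DESeq2, the only call among the 12, beside 0.828% of all genes called lower in DESeq2. Of the MEF2, DLX, FOXA, and SP relatives, 9 of 15 were tested and 0 were called by either test, with a median logFC of −0.16. *Sp3* (0.22) and *Sp4* (0.23) were higher in every *Trpc1-/-* sample, as were 7.15% of all genes, and did not pass the test (adjusted P = 0.569 and 0.51 in edgeR). *Sp6*, a close relative of *Sp7*, had the smallest P of the list and the opposite direction, at −0.71 (SE 0.27, unadjusted P = 0.0304, adjusted P = 0.469 in edgeR).

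Of 34 other skeletal transcription factors, 30 were tested, of which 27 had a logFC below 0 (median −0.31) and 0 were called in edgeR. DESeq2 called 2 of them lower, beside 0.828% of all genes called lower. These were *Vdr*, the vitamin D receptor, at −0.62 (SE 0.14, adjusted P = 0.395 in edgeR and 0.0128 in DESeq2), and *Pax9*, a factor of vertebral cartilage, at −0.81 (SE 0.21, adjusted P = 0.395 in edgeR and 0.037 in DESeq2). Abundant members such as *Foxo3* (0.09, SE 0.1) and *Zbtb20* (−0.39, SE 0.28) did not pass either test.

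Most genes of the chondrocyte matrix, hypertrophic, and osteoblast and osteocyte lists had lower means in *Trpc1-/-* samples, but few passed a test. Whether the factors described here control each gene of these lists was not tested. Of the 20 chondrocyte matrix genes, all 20 had a logFC below 0, with a median of −0.48, 0 were called in edgeR, and 2 in DESeq2, which called 0.828% of all genes lower. The 2 were *Cilp*, which encodes a cartilage intermediate layer protein, at −0.94 (SE 0.16, adjusted P = 0.334 in edgeR and 4.16e-06 in DESeq2), and *Chad*, which encodes chondroadherin, at −0.74 (SE 0.16, adjusted P = 0.395 in edgeR and 0.00267 in DESeq2). *Cilp* and *Chad* also stand among the changed genes that the study printed for these samples. The gene lists were chosen with earlier results of these data known, so the counts of calls in them are a description. *Col11a1*, a fibrillar collagen gene with SOX9 sites, was at a logFC of −0.42 (SE 0.22, edgeR adjusted P = 0.537).

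Of the 10 hypertrophic genes, 9 had a logFC below 0 (median −0.36) and 0 were called by either test. *Col10a1*, the collagen gene that defines hypertrophy and a target of RUNX2 and MEF2C, averaged 655 ± 305 CPM over the 4 WT samples and 417 ± 112 CPM over the 3 *Trpc1-/-* samples (SD), a logFC of −0.65 (SE 0.37, edgeR adjusted P = 0.557). *Spp1*, which encodes osteopontin, had a logFC of 0.06 (SE 0.16). All 15 osteoblast and osteocyte genes had a logFC below 0, with a median of −0.35, and 0 were called in edgeR. DESeq2 called 1 of them lower, beside 0.828% of all genes called lower. This was *Sost*, the gene of the osteocyte protein sclerostin (logFC −0.75, SE 0.16, adjusted P = 0.381 in edgeR and 0.0033 in DESeq2). The study also printed *Sost* among its changed genes.

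Markers of other cells were compared in the same way. Of 12 erythroid markers, 12 had a logFC above 0 (median 0.51), 9 were higher in every *Trpc1-/-* sample, as were 7.15% of all genes, and 4 were called in DESeq2, beside 0.962% of all genes called higher, and 0 in edgeR. Of 10 T and NK cell markers, 10 were above 0 (median 0.35), and their sum was 25.2 CPM in WT replicate 1, 45.4 to 51.5 CPM in the other WT samples, and 48.4 to 54.6 CPM in *Trpc1-/-* samples. Without WT replicate 1 the median was 0.22, with 6 of 10 above 0. Of 10 B cell markers, 9 were above 0 (median 0.28), with sums of 282 to 343 and 329 to 400 CPM. These lists bear on *Runx1*, *Runx3*, *Sox6*, and *Mef2c*, which blood cells also transcribe, and their part in those values was not tested.

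Of 10 synovial and fibroblast markers, 10 had a logFC below 0 (median −0.34), and their sums were 4140 to 7610 CPM in WT and 4320 to 5500 CPM in *Trpc1-/-* samples. Of the 9 skeletal muscle markers tested, 9 were above 0 (median 0.61), with sums that varied widely within WT (65.8 to 1280 CPM) and overlapped those of *Trpc1-/-* samples (383 to 1060 CPM). The sum was highest in WT replicate 1. The medians of the granulocyte and monocyte (0.07), megakaryocyte (0.06), endothelial (−0.08), and osteoclast lists (−0.1) lay near 0, and that of 6 adipocyte markers was 0.48. With all samples, 0 genes of these lists were called in edgeR. DESeq2 called 1 synovial and fibroblast gene lower, *Fbln1* (logFC −0.57, SE 0.08, adjusted P = 3.46e-07), which the study also printed among its changed genes. It called 1 adipocyte gene higher, *Adipoq* (logFC 0.33, SE 0.08, adjusted P = 0.0231). Of all genes, DESeq2 called 0.828% lower and 0.962% higher.

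WT replicate 1 also stood apart in the marker sums. Its granulocyte and monocyte sum was 5560 CPM, against 12800 to 17400 CPM in the other samples, and its megakaryocyte sum was 360 CPM, against 535 to 718 CPM. The part of this makeup in its *Sox9*, *Sox5*, *Sox6*, and *Foxa3* levels was not tested. Without this sample the list medians were −0.63 for chondrocyte matrix, −0.36 for hypertrophic, −0.35 for osteoblast and osteocyte, and 0.41 for erythroid genes. That of the muscle markers was 2.08, and that of the adipocyte markers 0.62. EdgeR then called *Cilp*, *Sost*, *Mepe*, and *Fbln1* among the lists, all lower in *Trpc1-/-* samples (adjusted P from 0.0208 to 0.0469), beside 0.32% of all genes. DESeq2 then called 12 of the 20 chondrocyte matrix genes, 4 of the 10 hypertrophic genes, and 6 of the 15 osteoblast and osteocyte genes, all lower. It also called 5 of the 30 other skeletal transcription factors lower. Called higher were 10 of the 12 erythroid markers, 6 of the 9 muscle markers, and 5 of the 6 adipocyte markers. Over all genes this fit called 5.49%, 520 higher and 372 lower.

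**Figure D5:**
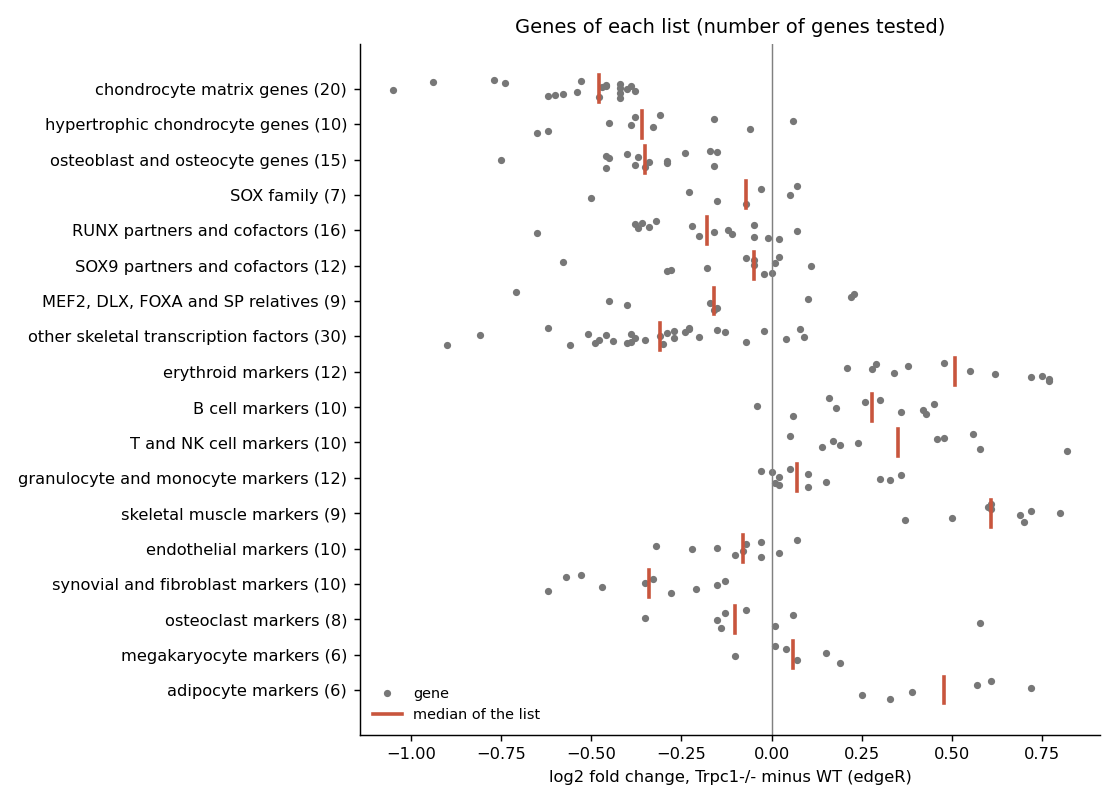
logFC between *Trpc1-/-* and WT samples (log2 scale) of each tested gene (gray points) in 18 lists, with the number of genes tested in parentheses and the median of each list as a red line. The chondrocyte, hypertrophic, and osteoblast lists lie mostly below 0 (medians −0.48, −0.36, and −0.35), and the erythroid, T and NK cell, muscle, and adipocyte lists above 0.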

How the data were processed

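The authors sequenced stranded, ribosomal RNA-depleted libraries from both ends, trimmed adapters, and aligned the reads to GRCm38. Per the submitters' processing notes, the tools included Cutadapt 2.5, HISAT2 2.1.0, and StringTie 2.0.3. The authors deposited estimated counts per gene, computed from StringTie coverage. They were whole numbers and not normalized, so rounding changed none, and the assignment of reads that map to several genes was fixed before deposit.

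Genes above 1 CPM in at least 2 samples were kept, 16429 of 55401. Library sizes were scaled by TMM, and genotype was the only term of an edgeR 4.0.16 quasi-likelihood fit in R 4.3.3. P values were adjusted by Benjamini-Hochberg over all genes tested (threshold 0.05). SEs and 95% intervals were taken from the F statistic. The 5 ratios were tested with exact permutation tests over 35 splits. Groups followed the labels (4 WT and 3 *Trpc1-/-*, where the methods of the study give the reverse). Positions and exon lengths came from GENCODE M21, and motif windows from RefSeq (GRCm38.p6). A level of 3 counts, the floor used, was 0.0254 to 0.0575 CPM.

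Alternatives were DESeq2 1.42.0, limma-voom (limma 3.58.1), DESeq2 size factors, other filters on low counts, each sample left out in turn, the mouse number series, and the replicate block. DESeq2 with each sample left out was added after the data were seen. The genes and lists were chosen with earlier results of these data known. Named were the 10 genes, the 2 most abundant genes of each list and the 2 with the smallest edgeR P, the 3 genes with the most similar pattern for each of the 10, and overlapping genes, and 1 gene covered by this rule is not reported here. *Crebbp*, *Mepe*, *Foxa1*, *Foxa2*, and the SOX genes at 0 were named after their values were seen. Scripts were tested on simulated data.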

Additional observations from a re-analysis of the deposited data

Results flagged for a closer look

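In groups of 4 samples, a sample was singled out when its gap to the nearest of the others exceeded the share of the group's range given by Dixon's 95% critical value. Of 15 WT groups examined, 4 held such a sample, where chance gives about 1 in 20. For *Sox9*, WT replicate 1 had 25.7 CPM and the other WT samples 13.5 to 15.2 CPM. For *Sox5*, WT replicate 1 had 40.9 CPM and the others 20 to 21.7 CPM. For *Foxa3*, the same sample had 0.843 CPM and the others 1.53 to 1.62 CPM. For the log2 ratio of *Runx1* to *Runx2*, WT replicate 4 was at 0.961 and the others at 1.09 to 1.11. The groups share samples, and 3 of the 4 cases were WT replicate 1, which also stood apart over all genes.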

How the results depend on the processing

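The number of genes called over all genes tested was 0 in edgeR (1643 at an unadjusted P under 0.05), 294 in DESeq2, and 1 in limma-voom. With each sample left out it lay between 0 and 52 in edgeR and between 37 and 892 in DESeq2, both highest without WT replicate 1 (DESeq2 without WT replicates 2 to 4 called 62, 134, and 281, and without *Trpc1-/-* replicates 1 to 3 called 84, 371, and 37). Of the 10 genes, 0 were called in each fit except DESeq2 without WT replicate 1 (2, *Sox6* and *Foxa3*) and without *Trpc1-/-* replicate 2 (1, *Sp7*). Directions turned for genes with a logFC near 0, namely *Mef2c* with no filter (0.0025), *Runx1* (0.01) and *Runx3* (0.09) without WT replicate 1, and *Runx3* (0.07), *Mef2c* (0.05), and *Dlx5* (0.0039) without *Trpc1-/-* replicate 1. Their ranges with each sample left out were −0.27 to 0.01 for *Runx1*, −0.22 to 0.09 for *Runx3*, −0.13 to 0.05 for *Mef2c*, and −0.43 to 0.0039 for *Dlx5*. In DESeq2 the cases without 1 sample gave 0.02, 0.09, 0.07, 0.05, and 0.0039. The cause was not tested. With the number series as a covariate, *Sox9* (−0.68) and *Sox5* (−0.67) reached an unadjusted P under 0.05 (adjusted P = 0.269 and 0.277 in edgeR).

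The ratio of *Sox6* to *Sox5* kept its direction, with differences of 0.43 to 0.75 with each sample left out, 0.72 in the 1300s, and 0.67 with the replicate block, and with P of 0.0667 to 0.25 in exact tests, none of which can pass the threshold with so few samples. *Sox9*/*Acan* turned to −0.22 in the 1300s and −0.08 with the block, and ranged from −0.08 to 0.27 with each sample left out. *Sp7*/*Runx2* was 0.04 in the 1300s and −0.24 to 0.04 with each sample left out, and *Runx1*/*Runx2* ranged from −0.11 to 0.23. Replicate numbers did not pair the samples (correlations of same-numbered deviations −0.35, −0.2, and −0.04, and 0 of 3 *Trpc1-/-* samples closest to their own number). The fit with the replicate block called 0 genes in edgeR (unadjusted P under 0.05 for 972). Precision was limited by the number of samples, 7 pools.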
